A study of Homo sapiens with 2 samples.

Results

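Glucose breakdown and the response to low oxygen were followed through 34 genes, chosen by gene symbol: 24 of glucose uptake, glycolysis, lactate handling and pyruvate entry, and 10 of the hypoxia-inducible factor (HIF) pathway. Of the 34, 30 had a probe set annotated to them alone, out of 18417 genes with such a probe set on the array. PGAM1 was covered by probe sets shared with PGAM4, and SLC16A1, SLC16A3 and CA9 were not analysed here. The cells were K562, an established human chronic myeloid leukaemia line with erythroid features, and both cultures carried an inducible hairpin that targets BMI1 mRNA, whose protein belongs to the Polycomb repressive complex PRC1. In the labels the doxycycline culture was incubated with the inducer for 96 h and the control culture with none, so each group held 1 sample on 1 array. No sample had doxycycline without the hairpin, so an effect of the drug itself, of the hairpin and of the handling of either culture cannot be told apart.

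Glycolysis splits glucose into pyruvate in the cytosol, and cells that divide fast, leukaemia lines among them, often turn much of that pyruvate into lactate. HIF1A, the oxygen-regulated subunit of HIF-1, is marked for degradation by prolyl hydroxylases when oxygen is present. When it is stable it binds short elements with the core ACGTG or GCGTG and raises glucose transporters, most glycolytic enzymes, PDK1, VEGFA and the prolyl hydroxylase genes EGLN1 and EGLN3 themselves, which closes a feedback loop.

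The values are the authors' log2 RMA values, so that a difference of 1 is a 2-fold difference, and every difference is doxycycline minus no doxycycline. With 1 array a group there was no replicate error and no test, and the number of arrays limits the precision. As a yardstick, each difference was set beside the robust SD of the differences of genes at a similar level (their scaled median absolute deviation), which ran from 0.10 to 0.16 over the members and is not an error of the cultures. The targeted transcript matched the labels: its probe set, annotated to BMI1 together with its read-through with COMMD3, gave 10.00 in the doxycycline sample against 10.84 in the control sample, 1.79-fold lower. Over the 13471 genes that reached a log2 value of 6 in either sample the median difference was 0.00177. For 554 of these genes, with several probe sets past this floor of 6, the pooled SD between the differences of their probe sets was 0.13. Every measured member except TPI1 rested on 1 probe set of its own. Of 10 K562 markers 9 had a probe set of their own and all 9 cleared this floor, with a mean of 9.89 with doxycycline and 10.08 without. For lymphoid cells 2 of 5 measured markers passed it, for monocytes and granulocytes 3 of 6 and for fibroblasts 4 of 6, with list means between 5.88 and 6.06 with doxycycline and between 5.93 and 5.97 without. Past the floor, 1 of 2 lymphoid, 3 of 3 monocyte and granulocyte and 3 of 4 fibroblast markers were higher with doxycycline, the lysozyme gene LYZ by 0.28 and S100A9 by 0.22, whereas all 9 K562 markers were lower. The part of these shifts in the results below was not tested. In bulk RNA, fewer cells of a type and less RNA per cell cannot be told apart.

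The medians of both arms lay close to 0, on opposite sides of it. All 30 measured members passed the floor, the lowest value being 7.06. In the doxycycline sample 11 members were higher, 18 were lower and 1 was equal, where 50.3% of all genes compared were higher and 48.8% lower. The glycolysis arm held 15 lower, 5 higher and 1 equal of 21, with a median of -0.07. The HIF arm held 6 higher and 3 lower of 9, with a median of 0.03, which is the value of NDRG1 (0.24 robust SD). VEGFA alone (1 of 30) reached 1.2-fold on the higher side, as did 6.04% of all genes, and 0 members did so on the lower side, against 4.05%. No member reached 1.5-fold (0 of 30), where 0.364% of all genes did so on the higher side and 0.111% on the lower. These shares include genes dimmer than any member, where the robust SD was larger (0.25 at the level of ARNT2, against 0.10 to 0.16). The fold counts are therefore not set against genes of equal level. Beyond 1 robust SD lay 14 of 30 members, 9 of them lower and 5 higher, against 31.9% of all genes. Beyond 2 lay only VEGFA, by a narrow margin (2.009), against 6.18%. Distances were counted from 0, not from the median of genes at a similar level, which ran from -0.014 to 0.013 over the members. HIF1A (1.002), LDHA (-1.04), PGK1 (-1.05), LDHB (-1.09) and PFKM (-0.96) lay close to 1 robust SD, and these counts depend on that choice. The opposite medians are a description of these 2 arrays, and the difference between the arms was not tested.

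**Figure D1:**
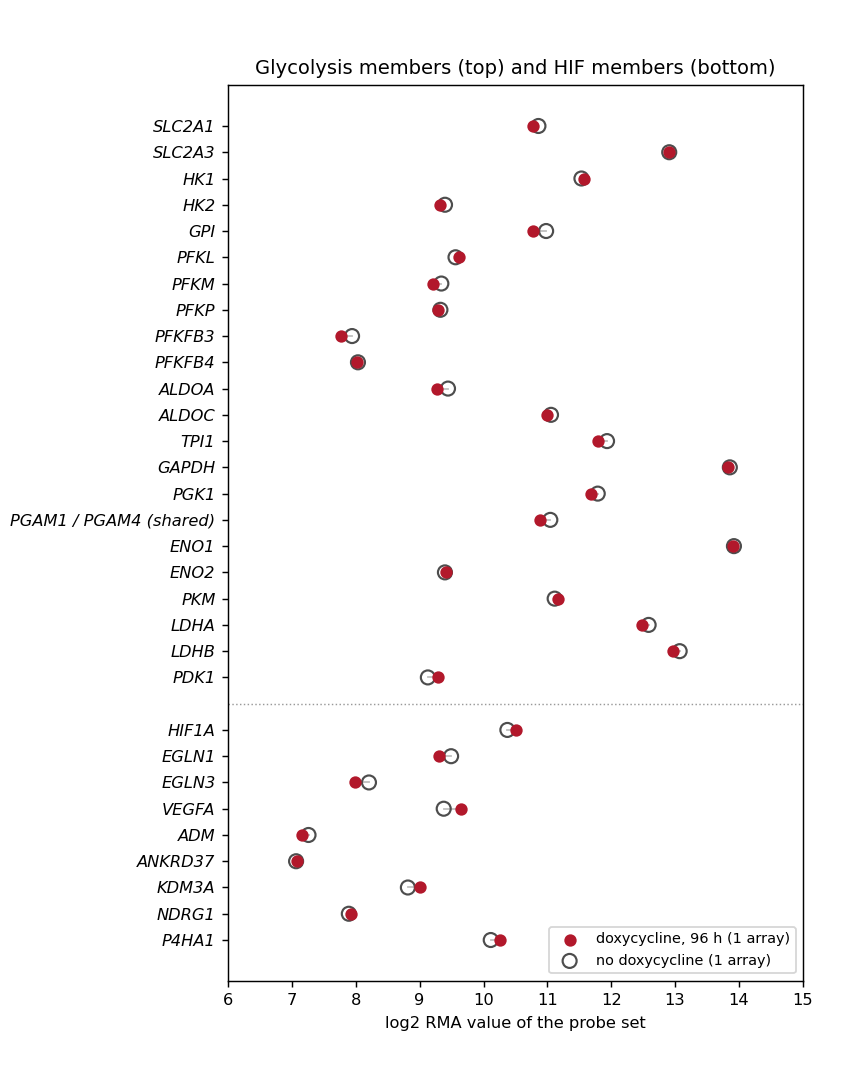
Log2 RMA value (horizontal axis) of each measured member in pathway order, with filled red points for the doxycycline sample and open grey points for the control sample, 1 array each. PGAM1 is drawn from its brightest probe set shared with PGAM4. The 2 points of a gene overlap or nearly touch in most rows, and VEGFA (9.64 with doxycycline, 9.38 without) is the furthest apart.

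Glucose enters through facilitative transporters. SLC2A1, the basal transporter GLUT1, had a log2 value of 10.78 with doxycycline and of 10.86 without it, a difference of -0.08. SLC2A3, the high-affinity transporter GLUT3, read 12.91 in both samples, equal to the last deposited digit, so neither transporter differed by as much as 1 robust SD. The first phosphorylation is made by hexokinases. HK1, the form found in most tissues, was at 11.58 with doxycycline, against 11.53 without, and HK2, the inducible form typical of tumours, at 9.31 with doxycycline and 9.40 without. The differences, 0.04 and -0.08, were both within 1 robust SD.

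GPI, which turns glucose 6-phosphate into fructose 6-phosphate, showed the lowest difference of the glycolysis arm. It measured 10.78 with doxycycline against 10.98 in the control, 1.15-fold lower, and 8.59% of all genes compared were as low or lower. The 3 phosphofructokinase genes, whose enzyme is the main control point of the pathway, went both ways. PFKM, the muscle subunit, read 9.21 with doxycycline and 9.34 in the control sample (-0.13). PFKP, the platelet subunit, had a log2 value of 9.28 with doxycycline and of 9.32 without it (-0.04). PFKL, the liver subunit, was at 9.62 with doxycycline, against 9.56 without (0.06). The shift of PFKM minus that of PFKL was -0.190, just within the combined robust SD of the pair (0.191), and the other 8 isozyme pairs compared also stayed within theirs. The medians of genes at a similar level (0.0083 for PFKM, 0.0021 for PFKL) were not subtracted, and the narrow margin of this pair depends on that choice.

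The bifunctional enzymes of the PFKFB family set the level of fructose 2,6-bisphosphate, the strongest activator of phosphofructokinase. PFKFB3, the form with the highest ratio of kinase to phosphatase activity, measured 7.77 with doxycycline against 7.94 in the control, a difference of -0.17 or 1.11 robust SD below 0. PFKFB4 read 8.02 with doxycycline and 8.03 in the control sample, and the shift of PFKFB4 minus that of PFKFB3, 0.16, was within the combined robust SD of 0.21.

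Aldolase and triose phosphate isomerase make the triose phosphates, and all 3 of their genes were lower. ALDOA, the main aldolase of most tissues, had a log2 value of 9.27 with doxycycline and of 9.44 without it (-0.17). ALDOC, the brain form that is also hypoxia-inducible, was at 10.99 with doxycycline, against 11.06 without (-0.07). TPI1 had 2 probe sets with the same sign: the brighter one was at 11.79 with doxycycline against 11.93 in the control (-0.15), and the other at 8.94 with doxycycline and 9.06 without (-0.12). The difference of ALDOA was 1.23 robust SD and that of the brighter TPI1 probe set 1.42 robust SD below 0.

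In the lower part of the pathway, which yields ATP and pyruvate, 3 of the 5 genes with a probe set of their own were lower and 2, ENO2 and PKM, were higher. GAPDH, often used as a reference transcript, read 13.84 with doxycycline and 13.86 in the control sample (-0.02). ENO1, the main enolase, had a log2 value of 13.90 with doxycycline and of 13.92 without it (-0.02), and subtraction of an intensity trend turned the signs of both ENO1 and GAPDH. Both differences were small beside the robust SD at their level (0.10).

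PGK1, which makes the first ATP of the pathway, was at 11.68 with doxycycline, against 11.79 without, a difference of -0.11. For phosphoglycerate mutase, the 5 probe sets annotated to both PGAM1 and PGAM4 ran from 10.11 to 10.89 with doxycycline and from 10.30 to 11.05 without. All 5 were lower, by differences from -0.18 to -0.16, and since both symbols share each of them neither gene can be named alone. The reading of 10.11 with doxycycline and 10.30 without is repeated among these probe sets, so the 5 are not separate measurements. ENO2, the neuronal enolase and a known HIF target, measured 9.42 with doxycycline against 9.40 in the control (0.02). PKM, the pyruvate kinase of most proliferating cells, read 11.17 with doxycycline and 11.11 in the control sample (0.06). Its single probe set value does not separate the M1 and M2 splice forms. GAPDH, ENO1, PGK1, LDHA, LDHB and TPI1 belong to genes with processed pseudogenes, and how far their probes also read such copies was not tested.

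Both measured lactate dehydrogenase genes were lower by almost the same amount. LDHA, the subunit favoured for lactate production and a HIF target, had a log2 value of 12.48 with doxycycline and of 12.59 without it (-0.11). LDHB, the subunit typical of oxidative tissue, was at 12.96 with doxycycline, against 13.07 without (-0.11). The shift of LDHA minus that of LDHB was 0.00517, against a combined robust SD of 0.15, so both transcripts were shifted alike within this pair of arrays.

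PDK1, the kinase that shuts the pyruvate dehydrogenase complex and a HIF target, was the highest of the glycolysis arm. It measured 9.29 with doxycycline against 9.13 in the control, 1.12-fold higher, and 15.6% of all genes were as high or higher. It was the only glycolysis member above 1 robust SD on the higher side.

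**Figure D2:**
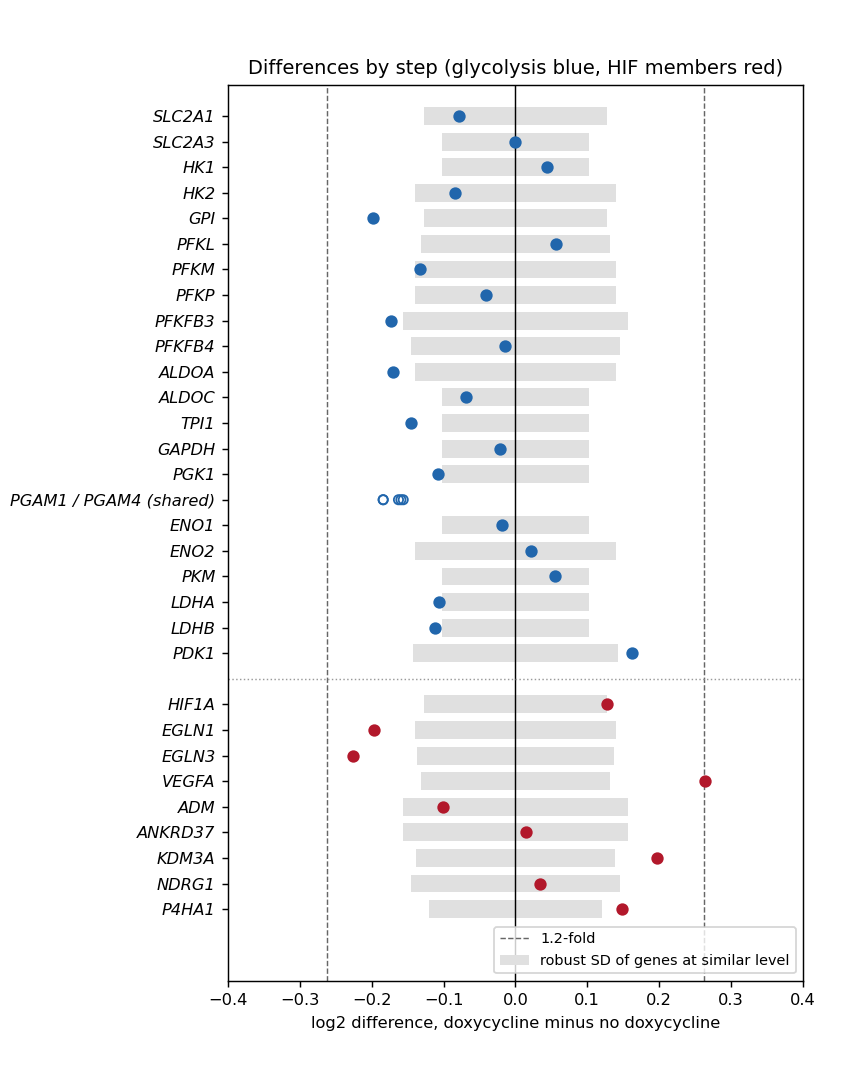
Log2 difference (horizontal axis, doxycycline minus no doxycycline) of each measured member in pathway order, with glycolysis members in blue and HIF members in red. Grey bars span 1 robust SD of genes at a similar level on each side of 0, dashed lines mark 1.2-fold, and open circles are the 5 probe sets shared by PGAM1 and PGAM4. Most blue points lie left of 0, PDK1 (0.16) lies to the right, and the red points spread from EGLN3 (-0.23) to VEGFA (0.26).

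In the HIF arm both prolyl hydroxylase genes were lower, while HIF1A and 5 of the 6 other measured targets of this arm were higher. HIF1A read 10.50 with doxycycline and 10.37 in the control sample, 1.09-fold higher, close to 1 robust SD. HIF-1 is governed mainly through the stability of this protein, which an mRNA level does not measure. EGLN1, the prolyl hydroxylase PHD2 and the main oxygen sensor of the pathway, had a log2 value of 9.30 with doxycycline and of 9.49 without it, 1.15-fold lower. EGLN3, the prolyl hydroxylase PHD3, was at 7.98 with doxycycline, against 8.21 without, 1.17-fold lower, and 6.15% of all genes were as low or lower. Both hydroxylase genes, themselves classical HIF targets, lay more than 1 robust SD below 0.

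Of the 6 measured targets outside these regulators, 5 were higher with doxycycline, against 50.3% of all genes. The 5 include NDRG1 and ANKRD37, which were nearly equal, and the count depends on which HIF targets were placed here. LDHA, EGLN1 and EGLN3, named above as HIF targets too, were lower, and PDK1 and ENO2 were higher. VEGFA, the angiogenic growth factor, measured 9.64 with doxycycline against 9.38 in the control, 1.201-fold higher, and 6.01% of all genes were as high or higher. It lay just past the 1.2-fold size (0.264 against 0.263 on the log2 scale) and fell short of it once an intensity trend was subtracted (0.259, leaving 0 members past it). KDM3A, a histone H3 lysine demethylase, read 9.01 with doxycycline and 8.82 in the control sample (0.20). P4HA1, a collagen prolyl hydroxylase subunit, had a log2 value of 10.26 with doxycycline and of 10.11 without it (0.15). These 3 genes and HIF1A made up the 4 HIF members beyond 1 robust SD on the higher side.

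The remaining targets were nearly equal or lower. NDRG1, a stress-response gene, was at 7.93 with doxycycline, against 7.89 without (0.03). ANKRD37, an ankyrin repeat gene, measured 7.08 with doxycycline against 7.06 in the control (0.02). ADM, which encodes the vasodilator peptide adrenomedullin, read 7.16 with doxycycline and 7.26 in the control sample (-0.10). With a floor of 8 these 3 genes drop out and the median of the HIF arm becomes 0.14 over 6 members, so the median of 0.03 depends on which members are counted.

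**Figure D3:**
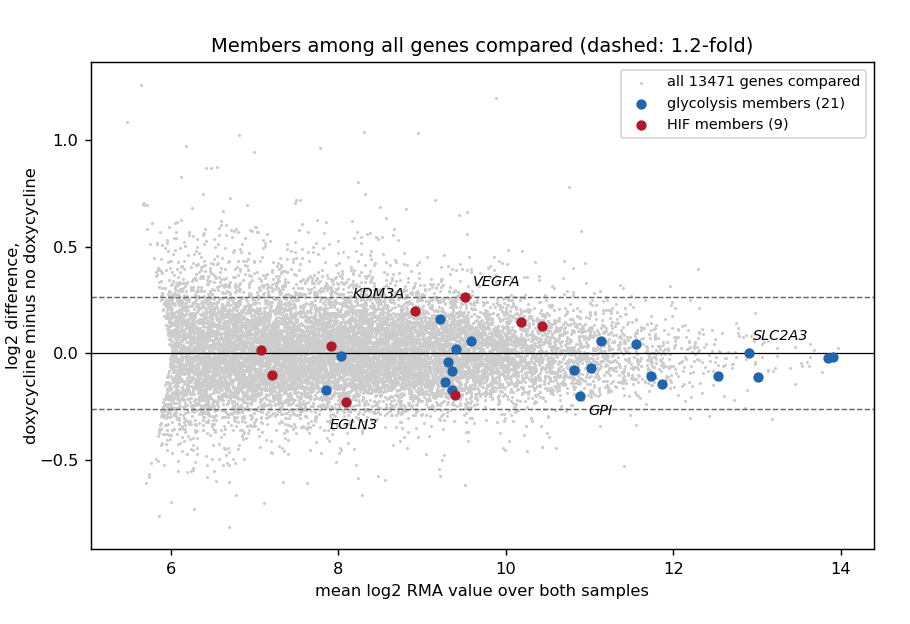
Log2 difference (vertical axis, doxycycline minus no doxycycline) against the mean log2 value over both samples (horizontal axis) for the 13471 genes compared in grey, with the 21 glycolysis members in blue and the 9 HIF members in red. Dashed lines mark 1.2-fold. Apart from VEGFA on the upper line, every member lies inside the 1.2-fold lines and within the grey cloud.

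The promoters of the highest 2 and lowest 2 HIF members with an entry in the RefSeq table are shown, because HIF acts through the short core named above. Windows run from 250 bases before to 50 after the gene start, are taken from RefSeq on GRCh38.p14, and are printed 5′ to 3′ on the strand of the gene with each match to ACGTG or GCGTG on either strand in capitals (CACGT and CACGC are the same cores on the other strand). KDM3A (chr2:86441121-86441420, plus strand) and P4HA1 (chr10:73096817-73097116, minus strand) were higher with doxycycline. EGLN1 (chr1:231422238-231422537, minus strand) and EGLN3 (chr14:33951025-33951324, minus strand) were lower. These 4 were chosen after their values were seen.
KDM3A: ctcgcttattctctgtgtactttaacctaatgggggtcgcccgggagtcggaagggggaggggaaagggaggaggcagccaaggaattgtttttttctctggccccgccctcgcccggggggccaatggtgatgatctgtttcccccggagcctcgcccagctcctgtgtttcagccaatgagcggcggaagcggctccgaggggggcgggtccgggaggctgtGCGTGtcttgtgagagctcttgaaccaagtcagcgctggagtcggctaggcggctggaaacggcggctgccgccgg
P4HA1: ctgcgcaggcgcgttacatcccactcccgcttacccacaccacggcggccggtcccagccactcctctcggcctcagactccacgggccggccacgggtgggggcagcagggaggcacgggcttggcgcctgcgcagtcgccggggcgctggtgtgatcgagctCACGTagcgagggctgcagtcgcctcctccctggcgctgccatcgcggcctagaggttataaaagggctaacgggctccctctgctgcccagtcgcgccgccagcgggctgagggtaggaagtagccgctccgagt
EGLN1: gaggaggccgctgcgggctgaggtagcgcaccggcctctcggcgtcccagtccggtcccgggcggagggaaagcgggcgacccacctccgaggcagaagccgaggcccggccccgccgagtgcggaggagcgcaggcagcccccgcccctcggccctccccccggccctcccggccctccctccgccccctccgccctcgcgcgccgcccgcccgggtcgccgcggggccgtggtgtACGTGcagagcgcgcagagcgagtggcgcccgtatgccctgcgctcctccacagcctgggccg
EGLN3: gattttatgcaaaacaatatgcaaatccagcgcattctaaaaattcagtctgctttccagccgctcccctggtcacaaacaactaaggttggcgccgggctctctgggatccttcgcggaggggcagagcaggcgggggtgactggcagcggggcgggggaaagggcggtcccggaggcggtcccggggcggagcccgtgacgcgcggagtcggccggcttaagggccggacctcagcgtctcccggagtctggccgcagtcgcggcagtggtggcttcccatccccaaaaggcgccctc

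The higher KDM3A and P4HA1 and the lower EGLN1 each held 1 core match, and EGLN3 held 0 in these letters. Of the 34 members 30 had a promoter in the RefSeq table; SLC2A3, SLC16A1, VEGFA and NDRG1 had none there. At least 1 core was found in 22 of the 30 (73.3%), against 61.7% of the promoters of the genes compared and 48.4% of all 27305 promoters of the same length. LDHA had 6 matching positions, ALDOC 5 and PGK1 4, and the palindrome CACGTG counts as 2 positions because it holds the core on both strands. Either core was found in 7 of the 9 matched members that were higher and in 14 of the 18 that were lower, 77.8% in both, and ACGTG itself in 3 of the 9 higher (33.3%) and 8 of the 18 lower (44.4%), against 26.02% of the promoters of the genes compared. A match is a run of letters, not a bound site.

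Genes around the members were read through 6 further lists, with a 1.2-fold background of 6.04% higher and 4.05% lower. The lists were chosen with earlier results of these data known, so their counts are a description and not a test. Other glycolytic isozymes and sugar or monocarboxylate transporters had a median of -0.05, with 13 of 20 lower and 3 at least 1.2-fold lower. The 3 were PKLR, the pyruvate kinase of red cells and liver, SLC2A4, the insulin-responsive transporter GLUT4, and SLC2A6, a transporter of lysosomal membranes. PKLR had a log2 value of 7.95 with doxycycline and of 8.48 without it, 1.44-fold lower. SLC2A4 was at 6.90 with doxycycline, against 7.27 without (-0.37), and SLC2A6 at 6.30 with doxycycline and 6.57 without (-0.27). PKLR was thus lower by more than the robust SD at its level (0.14), while the difference of PKM (0.06) was within 1 robust SD. Of the measured K562 markers 9 of 9 were lower too, where 48.8% of all genes were, with differences from -0.44 (HBZ, the embryonic zeta globin gene) to -0.09 (EPOR, the erythropoietin receptor gene), and their part in the PKLR difference was not tested. Not every erythroid gene was lower: ALAS2, the erythroid enzyme that starts haem synthesis, chosen after its value was seen, was at 8.87 with doxycycline, against 8.65 without (0.22).

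The pyruvate dehydrogenase complex with its kinases and phosphatases went the way of PDK1. All 8 genes past the floor were higher, where 50.3% of all genes were, with differences from 0.02 to 0.21, a median of 0.07 and 0 at 1.2-fold. PDHX, the component that anchors the E3 subunit, measured 9.69 with doxycycline against 9.47 in the control (0.21). DLD, the E3 subunit, read 12.11 with doxycycline and 11.995 in the control sample (0.11), and the kinase gene PDK4 was at 7.29 with doxycycline and 7.21 without (0.08). Subunits of the complex and kinases that inhibit it were thus shifted in the same direction, and apart from PDHX and DLD they stayed within 1 robust SD. PDK3 lay under the floor, at 5.51 with doxycycline and 5.80 without (-0.29), and was not counted.

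Branches off glycolysis were mixed. Of 15 pentose phosphate and glycogen genes, 7 were higher and 8 lower, with a median of -0.00548 and 1 at least 1.2-fold higher. That gene was PYGL, the liver glycogen phosphorylase, at 9.23 with doxycycline and 8.93 without (0.30). GBE1, the glycogen branching enzyme gene, had a log2 value of 9.51 with doxycycline and of 9.29 without it (0.22). UGP2, which makes UDP-glucose for glycogen synthesis, was at 9.62 with doxycycline, against 9.87 without (-0.25).

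Among 13 HIF subunits and regulators, 8 were higher and 5 lower, with a median of 0.02 and 2 at least 1.2-fold higher. EPAS1, the HIF-2 alpha subunit, measured 7.99 with doxycycline against 7.68 in the control, 1.24-fold higher. ARNT2, a partner subunit, read 6.18 with doxycycline and 5.85 in the control sample (0.33), and only its doxycycline value reached the floor, at a level where the robust SD was 0.25. ELOB, a subunit of the ubiquitin ligase that removes HIF, had a log2 value of 10.33 with doxycycline and of 10.59 without it (-0.26).

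Other HIF targets did not share 1 direction. Of 26 past the floor, 14 were higher and 12 lower with a median of 0.04, 2 were higher by 1.5-fold or more (0.364% of all genes were), and 1 was lower by 1.2-fold or more. Because this list was chosen with earlier results of these data known, its count beside that share is no evidence of an excess. CA12, among the lower genes, was at 5.93 with doxycycline and 6.13 without, and only its control value reached the floor. DDIT4, the mTORC1 inhibitor that also answers to amino acid stress, was at 9.51 with doxycycline, against 8.79 without, 1.65-fold higher. CCNG2, cyclin G2, measured 7.85 with doxycycline against 7.13 in the control, 1.64-fold higher, and it is also a FOXO target. FAM162A, a mitochondrial HIF target, read 8.58 with doxycycline and 8.91 in the control sample, 1.25-fold lower.

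Among 10 genes of glucose sensing and gluconeogenesis, 4 were higher and 6 lower, with a median of -0.03, 1 at least 1.2-fold higher and 1 lower by that size. PCK2, the mitochondrial phosphoenolpyruvate carboxykinase, had a log2 value of 8.42 with doxycycline and of 8.13 without it, 1.22-fold higher. MLXIP, the glucose sensor MondoA, was at 8.48 with doxycycline, against 8.74 without (-0.26). FBP1, fructose bisphosphatase, measured 5.67 with doxycycline against 6.03 in the control (-0.36), and only its control value reached the floor.

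**Figure D4:**
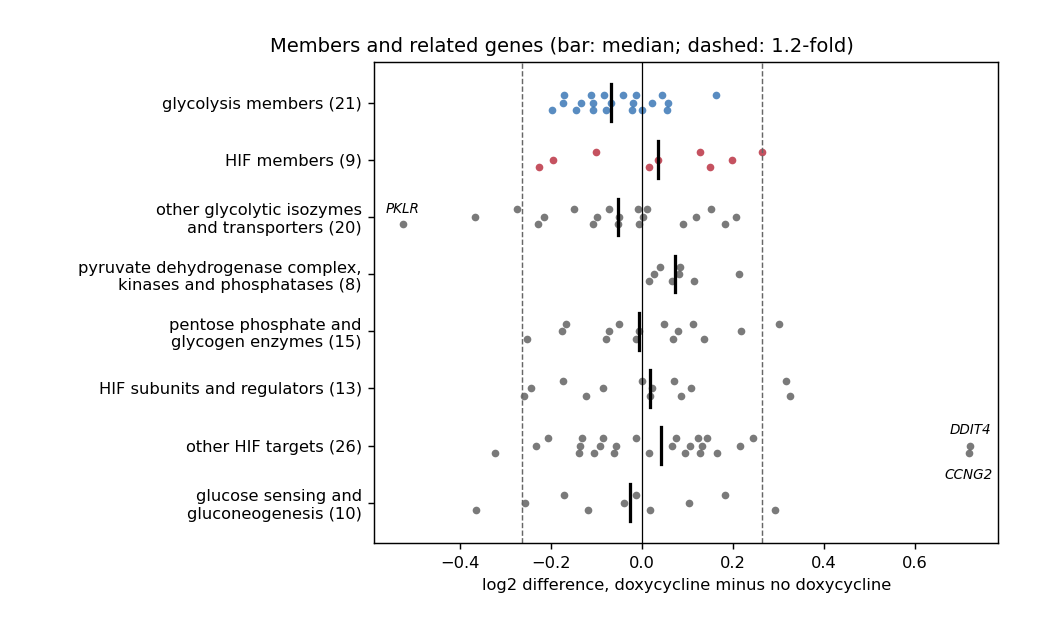
Log2 difference (horizontal axis, doxycycline minus no doxycycline) of each gene past the floor in the glycolysis arm (blue), the HIF arm (red) and 6 related lists (grey), with the number of genes in brackets. Black bars are medians and dashed lines mark 1.2-fold. The medians run from -0.07 (glycolysis) to 0.07 (pyruvate dehydrogenase complex), and DDIT4, CCNG2 and PKLR lie furthest from 0.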

How the data were processed

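Total RNA of 2 K562 cultures (0.3 µg each, RNA integrity number 10) was labelled by an Affymetrix whole-transcript protocol and hybridised to 1 array each, per the labels' protocols. The series text names an HG-U133 array, whereas the probe set numbers match the annotation of a Gene ST array, which was used. The authors deposited log2 values from RMA in Affymetrix Expression Console 1.1.1, per the submitters' processing notes. RMA quantile-normalizes arrays, so a shift shared by all genes would be removed, and it compresses differences of dim probe sets. The log2 base was taken from RMA and the range, 1.61 to 14.6. The set of arrays normalized together is not stated in these sources.

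Of 33297 probe sets, 19460 had 1 gene symbol, 1754 several and 12083 none here, and 19429 of the 19460 were updated through Entrez IDs to RefSeq. A gene took its probe set with the highest mean, and the floor was a log2 value of 6 in either sample, which left 13471 of 18417 genes. Robust SDs came from 20 bins of mean level. Detection calls were not used, so whether a gene was expressed was not tested. Members and lists were chosen with earlier results of these data known. All members were named, and in each related list the 3 genes with the largest absolute difference. The 1.5-fold counts, the robust SD of the unchanged genes as a whole and the loess trend were tested on simulated data. The simulation had even noise and a planted log2 difference of 1, larger than that of any member. The planted genes lay above the floor, so the floor itself was not tested. Nor were the 1.2-fold counts and the robust SDs by level. The updating of symbols, the choice of probe sets, the isozyme pairs and the promoter matches were not part of that test. Alternatives were other probe set summaries, centring, quantile normalization, a loess trend (span 0.3) and other floors. Python 3.11.15, numpy 2.4.6, pandas 2.3.3, statsmodels 0.14.6 and matplotlib 3.10.9 were used.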

Additional observations from a re-analysis of the deposited data

How the results depend on the processing

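Under the alternatives run (mean or median of probe sets, centring, quantile normalization, subtraction of a loess trend, no floor and floors of 5, 7 and 8, and, added after seeing the data, inclusion of the shared PGAM1 and PGAM4 probe set), the median of all members ran from -0.04 to -0.02, that of the glycolysis arm from -0.07 to -0.06 and that of the HIF arm from 0.02 to 0.14. The highest of these, 0.14, came with a floor of 8, which left 6 HIF members. With the loess trend subtracted the count of members at least 1.2-fold higher was 0 in place of 1, VEGFA being at 0.259, and ENO1 and GAPDH changed sign; 14 members were then higher and 16 lower. No other alternative changed the sign of a member, although GAPDH became equal under quantile normalization and SLC2A3 left equality under 3 of the scalings. No paired analysis was possible because each group held 1 sample, and for the same reason no replicate could be left out. Without replicates, differences of this size cannot be set against the variation between cultures.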

Other observations

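The following genes of the related lists were chosen after their values were seen. SLC2A14, whose sequence is close to that of SLC2A3, read 10.03 with doxycycline and 9.82 in the control sample, a difference of 0.21, while SLC2A3 was equal in both samples. How far the probes of either gene read the other was not tested. P4HA2, the second collagen prolyl hydroxylase subunit gene, had a log2 value of 9.02 with doxycycline and of 8.85 without it (0.16), beside 0.15 for P4HA1. The mitophagy genes BNIP3 and BNIP3L, both known as HIF targets, lay on opposite sides of 0: BNIP3 was at 8.73 with doxycycline, against 8.96 without (-0.23), and BNIP3L at 10.13 with doxycycline and 10.01 without (0.12).

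SLC2A3 was not alone in being equal: of the 33297 probe sets, 735 had the same deposited value in both samples, and of the 13471 genes compared, 115.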
